A study of Mus musculus with 4 samples.

Results

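The genes described here are the HSP70, HSP110, HSP90, HSP60 and HSP10 chaperones, the small heat shock proteins, the DNAJ co-chaperones, the heat shock factors (HSF) and the BAG co-chaperones of the mouse testis. They were picked by symbol patterns: 95 of 49492 gene rows matched, 12 pseudogene rows were dropped, and 83 protein-coding genes were left. The genes and the lists by role used below were chosen with earlier results of these data known. Expression was measured by RNA sequencing of whole testis of male C57BL/6J mice, in 2 groups of 2 libraries. By the labels, the first group carried a Spry1 knockdown and had received LPS (lipopolysaccharide, a bacterial component that activates innate immunity), and the second, with a control hairpin and a genotype given as wild type, had received LPS too. Spry1 encodes a protein that restrains receptor tyrosine kinases as part of a feedback loop. The labels give no age, do not say which cells the hairpin reached, and do not say that replicates came from separate animals. The p-values therefore measure only the spread between these libraries, which may be technical.

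The headings over the counts are LPS and NC. LPS was read as the knockdown and NC as the control hairpin, although LPS is part of all 4 titles. If the headings mean LPS against no LPS, every difference below belongs to that contrast. The names LPS columns and NC columns are used for the groups, and log2 fold changes are LPS over NC, so that positive values are higher in the LPS columns. The libraries held 17612342 to 22451132 counts. The targeted gene, Spry1, had 26 and 17 counts in the LPS columns, against 45 and 41 in the NC columns.

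HSP70 and HSP90 proteins bind unfolded or partly folded clients and release them in cycles driven by ATP. DNAJ proteins deliver clients to HSP70 and stimulate its ATPase, and nucleotide exchange factors such as HSP110 and BAG proteins reopen it. Small heat shock proteins hold unfolded proteins without ATP. HSF1 binds heat shock elements, inverted repeats of the unit GAA, and drives the stress-inducible members. The testis adds its own members: Hspa2 is the HSP70 of spermatocytes, needed for meiosis, Hspa1l is an HSP70 of spermatids, and Dnajb3 is a DNAJ gene of spermatids.

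The promoters of the inducible pair Hspa1a and Hspa1b, of Hspb1 and Dnajb4, and of the germ-cell genes Hspa1l and Dnajb3 are shown because the comparison below sets these types of gene against each other. Each sequence comes from RefSeq on GRCm38.p6, runs 5′ to 3′ in the gene's own direction, and has 120 bases. Capitals mark the units of a heat shock element in its pair form: GAA and TTC, in either order, with 2 bases of any kind between them. The windows end 1 base before the RefSeq start, except that of Dnajb3, which runs from position -160 to position -41.
Hspa1a, chr17:34972157-34972276, minus strand: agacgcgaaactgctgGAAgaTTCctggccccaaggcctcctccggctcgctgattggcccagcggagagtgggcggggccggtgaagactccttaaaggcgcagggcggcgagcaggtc
Hspa1b, chr17:34959239-34959358, minus strand: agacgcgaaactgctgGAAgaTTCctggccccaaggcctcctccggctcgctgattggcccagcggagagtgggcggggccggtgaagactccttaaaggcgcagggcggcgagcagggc
Hspb1, chr5:135887799-135887918, plus strand: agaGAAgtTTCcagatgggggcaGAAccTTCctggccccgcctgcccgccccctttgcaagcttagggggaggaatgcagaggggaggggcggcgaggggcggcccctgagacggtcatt
Dnajb4, chr3:152193846-152193965, minus strand: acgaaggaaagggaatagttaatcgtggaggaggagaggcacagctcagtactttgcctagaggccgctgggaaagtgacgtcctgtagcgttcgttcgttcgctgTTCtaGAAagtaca
Hspa1l, chr17:34972583-34972702, plus strand: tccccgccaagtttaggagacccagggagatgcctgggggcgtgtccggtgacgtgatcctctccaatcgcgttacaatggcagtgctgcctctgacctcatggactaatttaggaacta
Dnajb3, chr1:88205789-88205908, minus strand: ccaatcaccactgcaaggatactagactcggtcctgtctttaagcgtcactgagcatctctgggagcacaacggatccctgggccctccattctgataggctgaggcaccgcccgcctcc

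The Hspa1a and Hspa1b windows were identical at 119 of 120 bases and hold the element at the same place, starting at position -104. Hspb1 holds 2 elements within this window. Dnajb4 has 2 promoters in RefSeq: the printed one holds 1 element at position -14. The other, upstream at chr3:152210034-152210333, holds none in the 250 bases before its start. The Hspa1l and Dnajb3 windows hold none. Hspa1l and Hspa1a are neighbours on opposite strands of chromosome 17, their starts separated by a gap of 546 bases, so that both of their printed windows lie in that gap.

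In the 250 bases before the start, the pair form stood in 12.8% of 32851 RefSeq promoters, or 14.5% of 27025 genes. The promoter table held 66 of the 83 genes, and 15 of them (22.7%) had a match. In the list of inducible genes, 7 of the 10 in the table had one (Hspa1a, Hspa1b, Hspb1, Hsph1, Dnajb4, Dnaja1 and Dnaja4), against 0 of 3 for Hspa2, Hspa1l and Dnajb3. A gene counted when any of its promoters matched. The 10 inducible genes had 16 promoters, of which 8 matched (50.0%), and the 3 germ-cell genes had 3 promoters. The longer form, which adds 1 more unit at the same spacing and so contains the pair form, was rarer, at 0.466% of promoters. It was found for 3 of the genes: the DNAJ gene Dnajb6 and the mitochondrial pair Hspd1 and Hspe1, which lie head to head. Both strands were read, and a match is a description of the letters and not a bound site.

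Of the 83 genes, 79 had enough counts to be tested. The small heat shock genes Hspb2 and Hspb3 and the factors Hsf3 and Hsf4 did not, at no more than 0.659 CPM (counts relative to the library total, scaled by TMM factors) in any library. In the quasi-likelihood test of edgeR, with p-values adjusted by the Benjamini-Hochberg method over 20855 genes and called at an adjusted p under 0.05, 14 of the 79 were higher in the LPS columns (17.7%), against 15.2% of all genes tested, and 17 were lower (21.5%), against 16.3%. The remaining 48 were not called, where 31.5% of all genes tested were called in either direction. Both shares were near those of all genes in this fit. With DESeq2, 7 of these genes were higher and 15 lower, against 1454 and 1845 of all genes tested. With library size as the only scaling, which moved the median log2 fold change of all genes by 0.0635, the counts were 17 higher and 13 lower for these genes, and 4207 higher and 2579 lower against 3169 and 3394 for all genes. The median log2 fold change of the 79 genes was -0.01, and the range was -0.87 to 0.88.

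None of the 79 was called with an absolute log2 fold change of 1 or more, where 3.19% of all genes tested were called higher at that size and 2.72% lower. Changes of that size, called or not, were found in 20 of 3871 genes with a mean of at least 1000 counts. Under that mean they were found in 1310 of 16984 genes. Genes with many counts were lower more often in the whole table: of all 3871 genes with a mean of at least 1000 counts, 15.1% were higher and 28.2% lower. Of the 47 chaperone genes in that range, 8 were higher (17%) and 14 lower (29.8%). In 26 of the 79 genes both LPS libraries lay above both NC libraries, and in 30 both lay below, against 32.1% and 32.0% of all genes. Summed over the 83 genes, chaperone counts made up 2.15% and 2.16% of all counts in the LPS columns, against 2.10% and 2.14% in the NC columns.

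**Figure D1:**
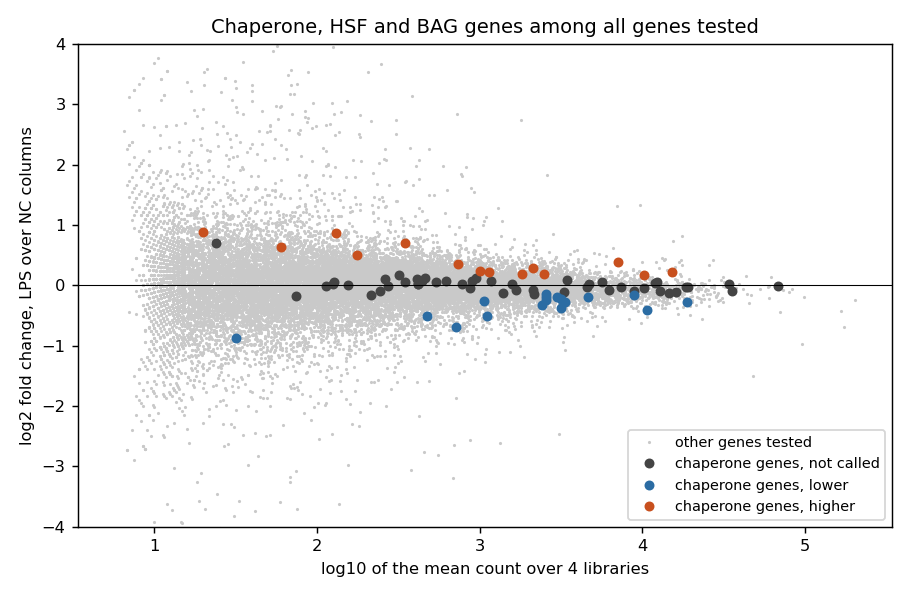
Log2 fold change (LPS over NC columns) against the log10 of the mean count over 4 libraries for the 79 tested chaperone, HSF and BAG genes (large points, by call) and all other genes tested (small grey points; 91 genes lie outside the plotted range). The chaperone genes lie between -0.87 and 0.88.

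**Figure D2:**
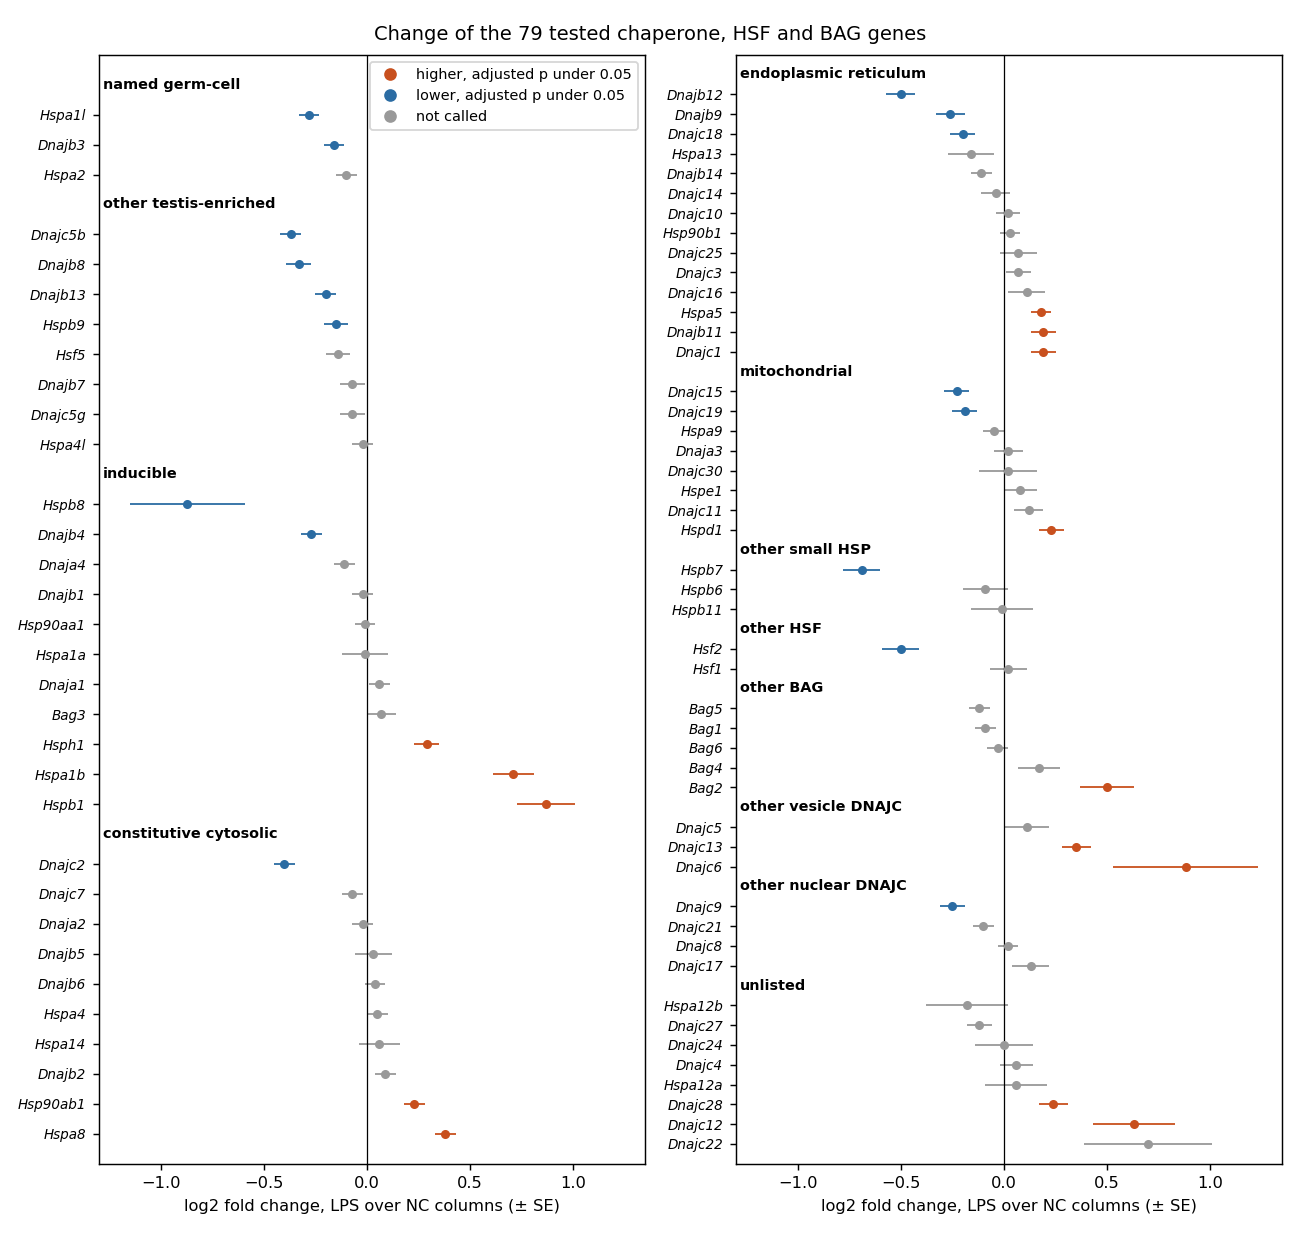
Log2 fold change (LPS over NC columns) with its SE for each of the 79 tested genes, grouped by role, each gene drawn once, coloured by the call at an adjusted p under 0.05 in edgeR's quasi-likelihood test. The inducible genes spread from -0.87 to 0.87, and the widest bars belong to genes with few counts, such as Dnajc6.

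In levels per length (RPKM, from the deposited gene lengths and the TMM-scaled counts), Hsp90aa1 and the germ-cell gene Hspa2 led. Hsp90aa1, the inducible HSP90 form that spermatogenesis needs, was at 867.7 ± 17.5 RPKM in the LPS columns and 873.8 ± 38.7 RPKM in the NC columns (SD, n = 2 per group). Hspa2 followed at 683 ± 0.958 RPKM in the LPS columns and 730.5 ± 19.4 RPKM in the NC columns. Bag1, a nucleotide exchange factor, came next with 461 ± 8.58 RPKM in the LPS columns and 489.8 ± 4.49 RPKM in the NC columns. Within each group, the spreads of these top genes did not meet one another. Between the groups, the values of Hsp90aa1 overlapped.

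The genes of the next ranks were Hsp90b1, the HSP90 of the endoplasmic reticulum, at a mean of 425 RPKM over the 4 libraries, Dnajb3 at 420.3 RPKM and Hspa1l at 377 RPKM. The order of Hsp90b1 and Dnajb3 differed between the groups: Hsp90b1 was the higher one in the LPS columns, at 429.7 ± 6.34 RPKM against 397 ± 18.7 RPKM for Dnajb3. In the NC columns Dnajb3 was the higher one, at 443 ± 7.59 RPKM against 420.3 ± 9.56 RPKM for Hsp90b1 (SD, n = 2 per group). Bag5 (289 RPKM), Hsp90ab1 (255 RPKM), the mitochondrial Dnajc15 (242 RPKM) and Dnaja4 (223 RPKM) filled ranks 7 to 10 as means over the 4 libraries.

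Within the HSP70 family, Hspa2 made up 43.6% and 42.5% of the summed RPKM in the LPS columns, against 44.4% and 43.1% in the NC columns. Hspa1l made up 20.9% and 22.0% in the LPS columns, against 24.9% and 24.7% in the NC columns. The constitutive Hspa8, which is the main HSP70 of most somatic cells, made up 5.80% and 6.01%, against 4.12% and 4.5%. The germ-cell forms thus outweighed Hspa8 in all 4 libraries, and the inducible pair Hspa1a and Hspa1b stayed at or under 0.503% each. The reading frames of this pair were 99.6% identical, so reads that match both copies may not be counted in full. The shares of the pair may therefore be too low. The sum includes the HSP110 relatives Hspa4 and Hspa4l. These shares depend on the deposited lengths, 4301 bases for Hspa8 and 2520 for Hspa2, against reading frames of 1941 and 1902 bases.

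**Figure D3:**
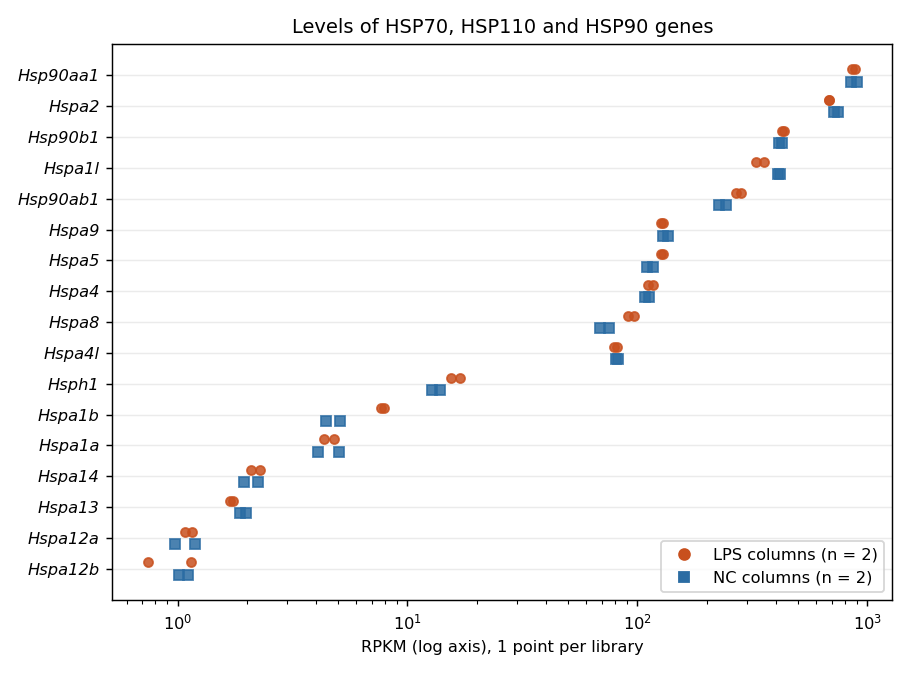
Levels of the HSP70, HSP110 and HSP90 genes in RPKM on a log axis, 1 point per library, with circles for the LPS columns and squares for the NC columns. Hsp90aa1 and Hspa2 lead, and Hspa8 and Hspa1b are among the rows in which both LPS points lie to the right of both NC points.

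Among the germ-cell genes, Hspa1l and Dnajb3 were lower in the LPS columns and Hspa2 did not pass the test. Hspa1l (chr17:34972703-34979285, plus strand, mm10) had 811 and 874.5 CPM in the LPS columns, against 1031 and 1014 CPM in the NC columns, from 15617 to 22680 counts per library. Both LPS libraries lay below both NC libraries, and the LPS level was 82.4% of the NC level. The log2 fold change was -0.28 ± 0.05 (SE), with an adjusted p of 4.38e-05 in edgeR's quasi-likelihood test, and the call held in all 11 alternatives.

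The Hspa1l value cannot be told apart from that of its antisense neighbour. The gene model Gm10501, on the opposite strand, overlaps 1778 exon bases of Hspa1l, or 71.9% of them, and the strand setting of the counting is not given in the sources used here. Gm10501 had 15553 and 15288 counts in the LPS columns, against 22113 and 20335 in the NC columns, which is 97.3% to 97.9% of the Hspa1l counts. Its log2 fold change was the same, -0.28 ± 0.05.

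Dnajb3 (chr1:88204732-88205782, minus strand, mm10) had 431 and 404 CPM in the LPS columns, against 472 and 460.3 CPM in the NC columns. The groups did not overlap, and the LPS level was 89.6% of the NC level. The log2 fold change was -0.16 ± 0.05, with an adjusted p of 0.0171 in edgeR's quasi-likelihood test. The call rested on single libraries and on the scaling: in edgeR's test the adjusted p was 0.182 without LPS replicate 2, 0.121 without NC replicate 1 and 0.14 with library size alone, where the log2 fold change was -0.094.

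Hspa2 (chr12:76404176-76406934, plus strand, mm10) had 1723 and 1719.6 CPM in the LPS columns, against 1875.5 and 1806 CPM in the NC columns. The groups did not overlap, the LPS level was 93.5% of the NC level, and the difference was not called: the log2 fold change was -0.10 ± 0.05, with an adjusted p of 0.133 in edgeR's quasi-likelihood test. The limma-voom fit gave the same size with an adjusted p of 0.0386.

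Of 8 further testis-enriched members, 0 were higher and 4 were lower by the same test. The lower ones were Dnajc5b, a testis form of the cysteine string protein (-0.37 ± 0.05), Dnajb8, a testis DNAJ that holds back aggregation (-0.33 ± 0.06), Dnajb13, part of the radial spoke of the sperm tail (-0.20 ± 0.05), and the small heat shock gene Hspb9 (-0.15 ± 0.06), all as log2 fold change ± SE. The call of Hspb9 did not hold when edgeR was run leaving out LPS replicate 2 (adjusted p = 0.247), NC replicate 1 (0.106) or NC replicate 2 (0.21), or with library size alone (0.245, log2 fold change -0.084). It did not hold without the filter on low counts (0.0649 in edgeR's test) or with DESeq2 (0.136) either, and so held in 5 of 11 alternatives. The other 4, Hspa4l, Dnajb7, Dnajc5g and Hsf5, lay between -0.14 and -0.02 and were not called. Together with Hspa2, Hspa1l and Dnajb3, 6 of 11 germ-cell and testis-enriched genes were lower (54.5%, against 16.3% of all genes). These lists were chosen with earlier results of these data known. All 11 averaged at least 1000 counts, a range in which 28.2% of all genes were lower. With library size alone, Hspa4l turned to 0.04 and the other 10 kept their sign.

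Dnajb8 and Dnajc5b share exon bases with antisense models too. For Dnajb8, 525 of its exon bases (37.2%) lie under 1700031F10Rik, which had 1382 and 1239 counts in the LPS columns against 1952 and 1718 in the NC columns. As the strand setting of the counting is not given, reads from these shared Dnajb8 bases may not have been told apart by strand. For Dnajc5b, 27 exon bases (2.14%) lie under 1700064H15Rik, whose counts were 8.4% to 8.97% of the Dnajc5b counts.

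Most listed markers of spermatids were lower in the LPS columns too. The shares for all genes tested were 15.2% higher and 16.3% lower. Among genes with a mean of at least 1000 counts, 28.2% were lower. Of 10 elongating spermatid markers, 7 were lower and 0 higher (median log2 fold change -0.29), with a summed level of 17605 and 17263 CPM in the LPS columns against 24282 and 23441 CPM in the NC columns. Of 8 round spermatid markers, 5 were lower and 1 higher (median -0.17), although their summed level was 1132 and 1083 CPM against 1117 and 1118 CPM, and of 8 spermatocyte markers 1 was lower and 2 higher (median 0.03). No marker of these lists was at 0 in all libraries. In whole testis, fewer cells of a type and less RNA per cell cannot be told apart, and the part of these markers in the chaperone differences was not tested.

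The stress-inducible genes did not move as a block. Of 11 inducible genes, 3 were higher (Hspb1, Hspa1b and Hsph1), 2 were lower (Hspb8 and Dnajb4) and 6 were not called by edgeR's quasi-likelihood test, with a median log2 fold change of -0.01. The higher share was 27.3%, against 15.2% of all genes, and the lower share 18.2%, against 16.3%.

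Hspb1 (chr5:135887919-135889563, plus strand, mm10), the small heat shock protein that binds actin and unfolded clients, had 8.07 and 9.13 CPM in the LPS columns, against 4.59 and 4.78 CPM in the NC columns. These values rest on 159 and 163 counts against 101 and 98. The level was 1.83-fold higher in the LPS columns, with a log2 fold change of 0.87 ± 0.14 (SE) and an adjusted p of 9.52e-06 in edgeR's quasi-likelihood test.

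The inducible HSP70 pair split. Hspa1b (chr17:34956436-34959238, minus strand, mm10) had 436 and 385 counts in the LPS columns, against 315 and 254 in the NC columns. That is 22.1 and 21.6 CPM against 14.3 and 12.4 CPM, without overlap, with a log2 fold change of 0.71 ± 0.10 and an adjusted p of 4.5e-07 in edgeR's quasi-likelihood test. Hspa1a (chr17:34969190-34972156, minus strand, mm10) had 279 and 229 counts in the LPS columns, against 330 and 249 in the NC columns. Its 14.2 and 12.8 CPM overlapped the 15.0 and 12.1 CPM of the NC columns, and its log2 fold change was -0.01 ± 0.11 (adjusted p = 0.965 in the same edgeR test), which turned to 0.054 with library size alone.

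The Hspa1b to Hspa1a ratio of counts was 1.56 and 1.68 in the LPS columns, against 0.955 and 1.02 in the NC columns. Over aligned positions, the longest reading frames of the pair were identical at 1918 of 1926 bases (99.6%), so reads of the coding part can be assigned to either copy with little certainty and the split between them is uncertain. The genes lie 9951 bases apart.

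Hsph1, the HSP110 exchange factor of HSP70, had 113 and 123 CPM in the LPS columns, against 92.8 and 100.7 CPM in the NC columns. The groups did not overlap, and the log2 fold change was 0.29 ± 0.06 (adjusted p = 3.14e-04, edgeR's quasi-likelihood test). Hspb1, Hspa1b and Hsph1 kept their calls in all 11 alternatives.

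Dnajb4, a heat-inducible DNAJ, fell to 151 and 152 CPM in the LPS columns, against 182 and 183 CPM in the NC columns, with little spread within either group (log2 fold change -0.27 ± 0.05, adjusted p = 1.94e-04 in edgeR's quasi-likelihood test). Hspb8, a small heat shock protein that works with Bag3, was at the low end of detection, with 24 and 17 counts in the LPS columns against 42 and 43 in the NC columns. Its log2 fold change was -0.87 ± 0.28 (adjusted p = 0.0153 in the same edgeR test). It was not called by edgeR when LPS replicate 2 (adjusted p = 0.122) or NC replicate 2 (0.0916) was left out, or by DESeq2 (0.216).

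The 6 inducible genes without a call included the abundant ones. Hsp90aa1 had 3362 and 3459 CPM in the LPS columns, against 3327 and 3542.5 CPM in the NC columns, so the groups overlapped (log2 fold change -0.01 ± 0.05, and 0.053 with library size alone). Dnajb1, the main DNAJ partner of HSP70 under heat stress, had 367.6 and 364 CPM against 364 and 376 CPM, and also overlapped. The DNAJ genes Dnaja1 (0.06 ± 0.05) and Dnaja4 (-0.11 ± 0.05) and the exchange factor Bag3 (0.07 ± 0.07) were not called either.

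**Figure D4:**
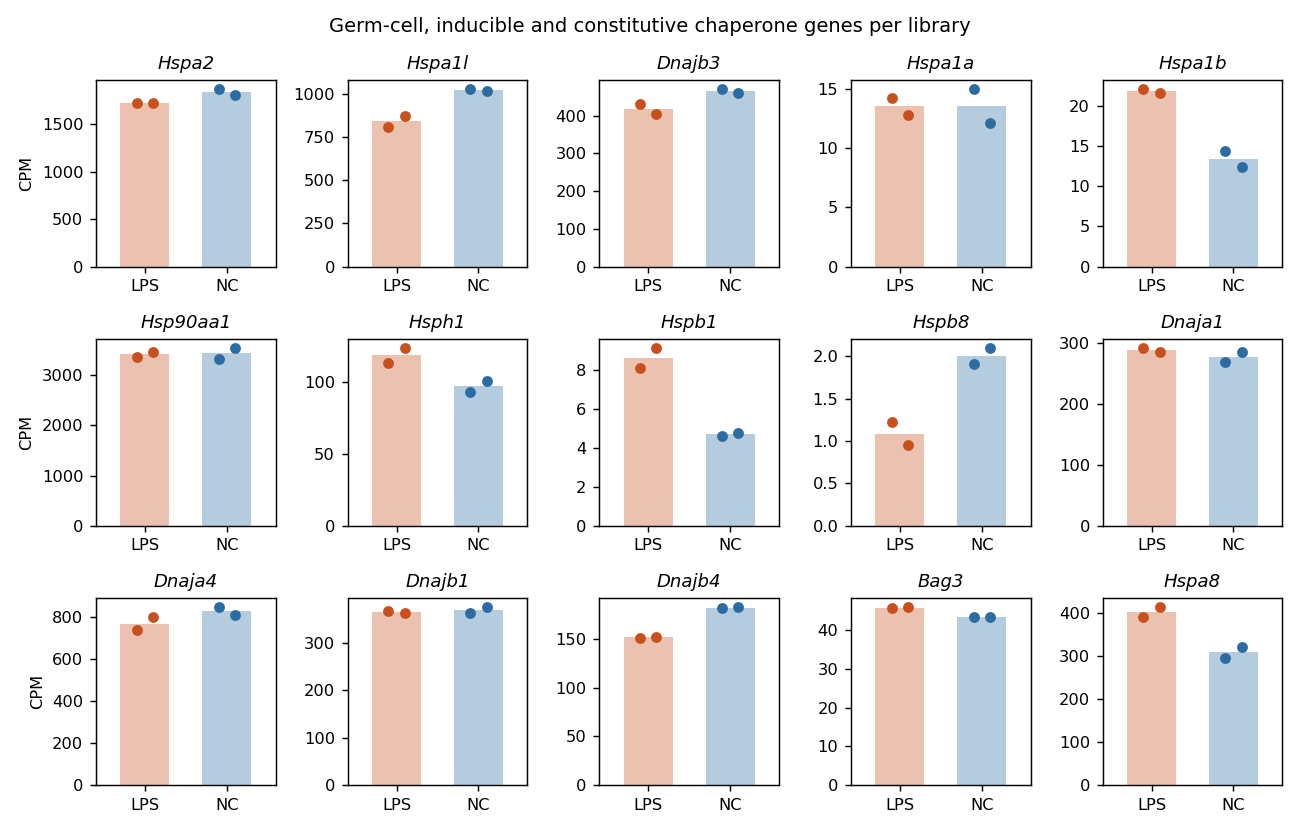
CPM per library (points) and group mean (bars, n = 2 per group) for the germ-cell genes Hspa2, Hspa1l and Dnajb3, the 11 inducible genes and the constitutive Hspa8, with the LPS columns on the left of each panel and an axis of its own for each gene. Hspb1 and Hspa1b stand higher in the LPS columns (8.60 and 21.8 CPM against 4.68 and 13.3 CPM), while Hsp90aa1 and Hspa1a overlap between the groups.

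Markers of somatic cells moved too, where 15.2% of all genes tested were higher and 16.3% lower. Of 8 macrophage markers, 5 were higher and 2 lower (median log2 fold change 1.23), with a summed level of 93.4 and 106 CPM in the LPS columns against 57.0 and 63.1 CPM in the NC columns. Of 8 Sertoli cell markers, 4 were higher and 0 lower (median 0.50), at 121 and 117 CPM against 85.8 and 87.3 CPM in sum, and of 8 peritubular and smooth muscle markers 5 were higher and 1 lower (median 0.59), at 549 and 553 CPM against 494 and 506 CPM. Of 5 tested endothelial markers 2 were higher and 0 lower (median 0.32), at 16.0 and 19.8 CPM against 15.1 and 12.1 CPM. Of 8 Leydig cell markers 5 were lower and 1 higher (median -1.14), at 451.5 and 522.5 CPM against 865.5 and 906 CPM. None was at 0 in all libraries, and their part in the values of the inducible genes was not tested.

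Set against each other within a library, where no scaling between libraries enters, the summed counts of Hspa2, Hspa1l and Dnajb3 stood below those of the 11 inducible genes. The log2 of that ratio was -0.786 and -0.815 in the LPS columns, against -0.612 and -0.711 in the NC columns. The difference was -0.139, and the groups did not overlap, although 2 libraries against 2 cannot give an exact two-sided permutation p under 0.333. Most of the inducible sum is Hsp90aa1. With the most abundant gene of each list left out, the difference was -0.201, and as a mean over genes of log2(RPKM + 0.1) it was -0.251. By that mean, in which each gene counts alike, the germ-cell genes stood above the inducible ones, by 4.328 and 4.335 in the LPS columns against 4.599 and 4.566 in the NC columns. The difference in summed counts was -0.09 without NC replicate 1.

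The ratio depends on the gene it is set against. Against the abundant Hsp90aa1, the Hspa2 ratio of counts was 0.512 and 0.497 in the LPS columns, against 0.564 and 0.51 in the NC columns, so the groups overlapped. Against Hspa8, which was itself called higher in the LPS columns, the groups did not overlap. The Hspa2 to Hspa8 ratio of counts was 4.40 and 4.15 in the LPS columns, against 6.32 and 5.61 in the NC columns. The Hspa1l to Hspa8 ratio was 2.07 and 2.11 in the LPS columns, against 3.47 and 3.15 in the NC columns. The Dnajb3 to Hspa8 ratio was 1.10 and 0.973 in the LPS columns, against 1.59 and 1.43 in the NC columns. In each of the ratios to Hspa8 both LPS libraries lay below both NC libraries.

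A pair of abundant genes and their close relatives gave the same kind of comparison. The ratio of Hsp90aa1 to Hsp90ab1, the constitutive HSP90, was 4.19 and 4.10 in the LPS columns, against 4.89 and 4.87 in the NC columns. The ratio of Hspa4l, a testis-enriched HSP110 relative, to its ubiquitous relative Hspa4 was 1.52 and 1.48 in the LPS columns, against 1.6 and 1.56 in the NC columns. Neither Hspa4l (-0.02 ± 0.05) nor Hspa4 (0.05 ± 0.05) was called. The ratios were not tested, and a difference in a ratio does not show which of its genes changed.

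**Figure D5:**
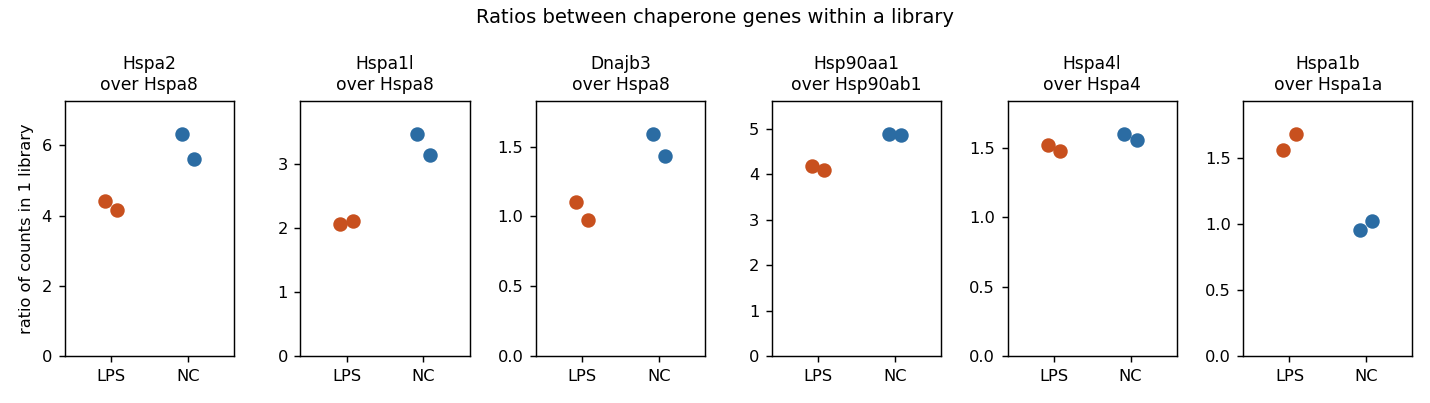
Ratio of the counts of 2 genes within 1 library, 1 point per library, with the LPS columns on the left of each panel and axes starting at 0. The ratios of Hspa2, Hspa1l and Dnajb3 to Hspa8 are lower in both LPS libraries, and the ratio of Hspa1b to Hspa1a is higher (1.56 and 1.68 against 0.955 and 1.02).

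Among the 10 constitutive cytosolic chaperones, 2 were higher, 1 was lower and 7 were not called (20% and 10%, against 15.2% and 16.3% of all genes). Hspa8 had 391 and 415 CPM in the LPS columns, against 297 and 322 CPM in the NC columns. The groups did not overlap, and the level was 1.30-fold higher in the LPS columns (log2 fold change 0.38 ± 0.05, adjusted p = 5.88e-07 in edgeR's quasi-likelihood test), a call that held in all 11 alternatives. Hsp90ab1 was also higher, with 803 and 844 CPM against 681 and 727 CPM (0.23 ± 0.05, adjusted p = 7.29e-04 in the same edgeR test). Dnajc2, a ribosome-bound DNAJ that works with HSP70 on nascent chains, was lower, with 441.5 and 465 CPM in the LPS columns against 578 and 619 CPM in the NC columns (-0.40 ± 0.05, adjusted p = 1.19e-07 in that test).

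Of the 14 chaperones of the endoplasmic reticulum, 3 were higher, 3 were lower and 8 were not called, which is 21.4% each way, near the 15.2% and 16.3% of all genes. The higher ones were Hspa5 (BiP, the HSP70 of this compartment) at 0.18 ± 0.05, its partner Dnajb11 at 0.19 ± 0.06 and Dnajc1 at 0.19 ± 0.06. Hspa5 had 547 and 538 CPM in the LPS columns, against 466 and 493 CPM in the NC columns. In edgeR's test the calls of all 3 were lost without NC replicate 1 (adjusted p = 0.0844, 0.193 and 0.0724), and those of Dnajb11 and Dnajc1 also without LPS replicate 2 (0.134 and 0.315), where the log2 fold change of Dnajc1 was 0.107. DESeq2 called neither of these DNAJ genes (0.0644 and 0.0916). Dnajc1 shares 749 exon bases with the antisense gene Mllt10, which had a log2 fold change of 0.21.

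The lower ones of this compartment were the membrane DNAJ genes Dnajb12 (-0.50 ± 0.07) and Dnajc18 (-0.20 ± 0.06) and the BiP regulator Dnajb9 (-0.26 ± 0.07). Dnajb12 had 45.6 and 45.0 CPM in the LPS columns, against 63.3 and 64.7 CPM in the NC columns, with an adjusted p of 1.64e-07 in edgeR's quasi-likelihood test. Dnajc18 was not called without NC replicate 2 (adjusted p = 0.0528) or with library size alone (0.0521) in edgeR's test. Hsp90b1 was not called, with 1751 and 1714 CPM in the LPS columns against 1667 and 1722 CPM in the NC columns.

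Of 8 mitochondrial chaperones, 1 was higher and 2 were lower (12.5% and 25%, against 15.2% and 16.3% of all genes). Hspd1, which encodes the chaperonin HSP60, had 61.5 and 62.1 CPM in the LPS columns, against 51.3 and 54.3 CPM in the NC columns (0.23 ± 0.06, adjusted p = 0.00651 in edgeR's quasi-likelihood test). The adjusted p was 0.0937 without NC replicate 1 in edgeR's test and 0.0595 with DESeq2. Hspe1, its HSP10 lid, had 31.9 and 31.6 CPM against 28.5 and 31.4 CPM and was not called. The pair overlaps head to head by 112 exon bases.

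The lower mitochondrial genes were Dnajc15 (-0.23 ± 0.06) and Dnajc19 (-0.19 ± 0.06), DNAJ proteins linked to the inner membrane import motor. Dnajc15 had 148.5 and 140 CPM in the LPS columns, against 166 and 172 CPM in the NC columns. Dnajc19 shares 178 exon bases with the antisense gene Fxr1, which had about 6 times as many counts (608% and 625% of the Dnajc19 counts in the LPS columns, against 606% and 582% in the NC columns). Its call was lost without NC replicate 2 (adjusted p = 0.113) and with library size alone (0.0646) in edgeR's test.

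Of the 6 small heat shock genes tested, Hspb1 was higher and Hspb7, Hspb8 and Hspb9 were lower (16.7% and 50.0%, against 15.2% and 16.3% of all genes). Hspb8 rests on 17 to 43 counts, and the call of Hspb9 held in 5 of 11 alternatives. Hspb7 (chr4:141420779-141425311, plus strand, mm10), known from heart and skeletal muscle, had 28.5 and 25 CPM in the LPS columns, against 38.5 and 48.0 CPM in the NC columns. The NC libraries were further apart than the LPS libraries, yet the groups did not overlap, and the log2 fold change was -0.69 ± 0.09 (adjusted p = 7.81e-08, edgeR's quasi-likelihood test). It ranged from -0.834 to -0.523 over the alternatives and kept its call in all 11. Hspb6 and Hspb11 were not called.

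Hsf2 was the only factor called among the 3 heat shock factors tested, as lower (33.3%, against 16.3% of all genes). Hsf2, which acts with HSF1 and is known for a role in spermatogenesis, had 20.6 and 18.3 CPM in the LPS columns, against 26.0 and 29.0 CPM in the NC columns (-0.50 ± 0.09, adjusted p = 3.57e-05 in edgeR's quasi-likelihood test). Hsf1, the main factor of the heat shock response, had 21.6 and 20.2 CPM against 20.2 and 21.1 CPM. The groups overlapped (0.02 ± 0.09). Hsf5, a testis factor of meiosis, had 101 and 103 CPM against 112 and 112 CPM and missed the threshold (-0.14 ± 0.06, adjusted p = 0.0595 in the same edgeR test).

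Of the 6 BAG genes, Bag2 alone was called, as higher (16.7%, against 15.2% of all genes). Bag2, which exchanges HSP70 nucleotides and restrains the ubiquitin ligase CHIP, had 9.79 and 11.1 CPM in the LPS columns, against 7.59 and 7.21 CPM in the NC columns. Its log2 fold change was 0.50 ± 0.13 (adjusted p = 0.00227, edgeR's quasi-likelihood test), and 0.0662 was its adjusted p with DESeq2. Bag1 (-0.09 ± 0.05), Bag3 (0.07 ± 0.07), Bag4 (0.17 ± 0.10), Bag5 (-0.12 ± 0.05) and Bag6 (-0.03 ± 0.05) were not called, and Bag6 turned to 0.03 with library size alone.

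The other DNAJC genes that were called had roles in vesicles, the nucleus or none listed. Dnajc13, an endosomal DNAJ, had 41.7 and 41.1 CPM in the LPS columns, against 31.8 and 33.2 CPM in the NC columns (0.35 ± 0.07, adjusted p = 2.82e-04 in edgeR's quasi-likelihood test). Dnajc9, a histone chaperone, was lower, with 112 and 118.5 CPM against 136.5 and 138 CPM (-0.25 ± 0.06). Dnajc28 was higher (0.24 ± 0.07), but not without LPS replicate 2 (adjusted p = 0.085 in edgeR's test) or with DESeq2 (0.063).

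Dnajc6 and Dnajc12 had large changes on few counts. Dnajc6, the auxilin that strips clathrin coats with HSP70, had 21 and 28 counts in the LPS columns, against 13 and 17 in the NC columns (0.88 ± 0.35, adjusted p = 0.0499 in edgeR's quasi-likelihood test). Its call was lost in 5 of 11 alternatives: without LPS replicate 2 (adjusted p = 0.397), NC replicate 1 (0.317) or NC replicate 2 (0.0709) in edgeR's test, with DESeq2 (0.355) and with limma-voom (0.0598). Dnajc12, a partner of the aromatic amino acid hydroxylases, was at 3.65 and 3.70 CPM against 2.14 and 2.63 CPM (0.63 ± 0.20, adjusted p = 0.0168 in the same edgeR test). It was not called without LPS replicate 2 (0.0501) or NC replicate 1 (0.157) in edgeR's test, or with DESeq2 (0.216).

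By family, the 45 DNAJ genes held 6 higher and 12 lower calls (13.3% and 26.7%, against 15.2% and 16.3% of all genes). The 12 lower ones averaged at least 1000 counts, a range in which 28.2% of all genes were lower. Not all 45 DNAJ genes reach that mean, so 26.7% and 28.2% are not shares of like sets. Of the lower ones, 6 were among the 13 DNAJB genes (46.2% of these, against 16.3% of all genes). Dnajb3, Dnajb8 and Dnajb13 among them are also counted above with the germ-cell and testis-enriched genes. The 4 DNAJA genes held no call, with log2 fold changes from -0.11 to 0.06. The 13 HSP70 genes held 3 higher calls (Hspa1b, Hspa8 and Hspa5) and 1 lower call (Hspa1l). That is 23.1% and 7.69%, against 15.2% and 16.3% of all genes. Exons of 28 of the 83 genes overlap those of another gene row, 7 of them on the same strand, so their counts may hold reads of a neighbour.

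Chaperone genes outside the symbol patterns changed in part. Of 22 co-chaperones of HSP70 and HSP90, 1 was higher (Chordc1, an HSP90 co-chaperone) and 1 was lower (Sugt1, an HSP90 partner of ubiquitin ligases). That is 4.55% each way, under the 15.2% and 16.3% of all genes. Chordc1 averaged 19.1 ± 1.64 CPM in the LPS columns and 11.1 ± 1.21 CPM in the NC columns (SD, n = 2 per group), a log2 fold change of 0.79 ± 0.11. Sugt1 was at -0.24 ± 0.06, and its call was lost without NC replicate 2 (log2 fold change -0.153, adjusted p = 0.148, edgeR's quasi-likelihood test). Of the 9 subunits of the cytosolic chaperonin TRiC, Cct6a was higher (0.30 ± 0.06) and 8 were not called. That is 11.1% higher, against 15.2% of all genes.

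Of 20 further chaperones of the endoplasmic reticulum and mitochondria, with crystallins and related genes, 5 were higher and 2 lower (25% and 10%, against 15.2% and 16.3% of all genes). Serpinh1, the collagen chaperone HSP47, averaged 19.2 ± 0.285 CPM in the LPS columns and 9.46 ± 0.497 CPM in the NC columns (SD, n = 2 per group), a log2 fold change of 1.02 ± 0.10 with an adjusted p of 7.69e-10 in edgeR's quasi-likelihood test. Sdf2l1, a BiP-associated protein (0.49 ± 0.08), and the disulfide isomerase Pdia4 (0.47 ± 0.06) were higher as well. The crystallin gene Cryaa (-0.66 ± 0.16) and the testis calreticulin Calr3 (-0.19 ± 0.05) were lower. Calr3 was not called without LPS replicate 1 (adjusted p = 0.106), without NC replicate 2 (0.0828) or with library size alone (0.0531) in edgeR's test, and Cryaa was not called with DESeq2 (0.0578).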

How the data were processed

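The authors deposited unnormalized counts for each gene in 1 table covering the series, beside each gene's length. The submitters' processing notes name build mm10 and the tools DESeq, edgeR 3.12.1, Subread 1.5.1, featureCounts, STAR 2.5.3a and Trimmomatic 0.36. How strand was set and which annotation was used is not given in the sources used here. Per the labels' protocols, a stranded mRNA kit was used.

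The whole table was fitted with edgeR 4.0.16 in R 4.3.3 (filterByExpr, TMM, glmQLFit and glmQLFTest, group as the only term), with Benjamini-Hochberg adjustment over 20855 genes. Degrees of freedom were 2 (residual) and 34 (prior). limma 3.58.1 and DESeq2 1.42.0 were alternatives. The SE is the one implied by the F statistic. CPM and RPKM use TMM-scaled totals. A count of 0 in 1 library allows up to 0.136 to 0.168 CPM (3 counts, counting error only). Replicate pairs differed by more than sampling noise (chi-square per degree of freedom 2.31 for LPS and 2.20 for NC). The test was checked on simulated counts, where it called 28 of 58 changes of 1.25-fold (48.3%) and 43 of 47 of 1.5-fold (91.5%). A small change can therefore be present without a call.

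The genes and lists were chosen with earlier results of these data known. Named genes are the 3 germ-cell genes, the inducible, HSF and BAG genes, the 10 largest rises and falls among calls, the 10 highest by RPKM, and in other lists the 3 largest changes in each direction. Hspa4l, Hspe1, Hspa5 and other genes outside this rule were named after their values were seen. Gene coordinates are those of the deposited table, and overlaps were counted between its exons. Reading frames were the longest in GENCODE transcripts.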

Additional observations from a re-analysis of the deposited data

How the results depend on the processing

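With DESeq2, calls over all genes numbered 1454 higher and 1845 lower, against 3169 and 3394 in the main fit. Chaperone genes called higher numbered 7 and lower 15, against 14 and 17. The lower chaperone calls thus fell less than those of all genes, and their share was above that of all genes with this tool. Inducible genes called lower numbered 1. With library size as the only scaling, 1 of the 3 germ-cell genes was lower. Leaving out 1 library at a time gave 8 to 14 higher and 13 to 17 lower chaperone genes, 1 to 2 lower inducible genes, 1 to 2 lower germ-cell genes, 2255 to 2730 higher and 2425 to 2962 lower genes in all, and a germ-cell minus inducible difference of -0.188 to -0.09. The low counts came without NC replicate 1 (8 chaperone genes higher) and without NC replicate 2 (1 inducible gene lower), and the germ-cell count was 1 without LPS replicate 2 and without NC replicate 1. The germ-cell minus inducible difference was -0.251 as a mean over genes of log2(RPKM + 0.1) and -0.201 without the most abundant gene of each list. The cause of these shifts was not tested. Of the 14 higher and 17 lower calls, 6 and 12 held in all 11 alternatives.

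Signs turned only for genes without a call among those named by the rule. With library size alone, the log2 fold change was 0.03 for Bag6, 0.046 for Dnajb1, 0.053 for Hsp90aa1 and 0.054 for Hspa1a. Leaving out single libraries gave -0.027 to 0.067 for Hsf1, -0.048 to 0.037 for Hsp90aa1, -0.149 to 0.162 for Hspa1a, -0.084 to 0.018 for Bag6 and -0.034 to 0.007 for Dnajb1.

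The shared replicate numbers are not stated to pair the libraries, and the deviations of same-numbered libraries correlated at 0.0182. With the replicate number as a block, 14 chaperone genes were higher and 17 lower, 3376 genes in all were higher and 3594 lower, and no named call changed. Hspb8 and Dnajc6, the genes with the largest fall and rise, rest on 13 to 43 counts per library.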
